A study of Caligus rogercresseyi with 6 samples.

Results

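The contigs described here are the 291 transcripts of the sea louse Caligus rogercresseyi whose counts were concentrated in the chalimus library, of 44089 contigs in all. Counts were expressed as CPM, the count divided by the total of its file and multiplied by 1e6. A contig was taken when chalimus held 90% or more of its CPM summed over 5 libraries, a proportion called the chalimus share here, and when it had 50 or more chalimus counts. The 291 were 1.37% of the 21283 contigs with 50 or more chalimus counts. The contigs were selected on these CPM and chalimus counts, so levels in chalimus against the other libraries are given as a description, with no test.

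RNA-seq was carried out on whole, wild-type animals, with RNA taken from pooled samples from farmed Atlantic salmon. The groups were chalimus, copepodid, egg, adult male and adult female, with 1 library each, and no treatment is labelled. A further file, labelled adult with no sex, repeats the male and female data in a joint count and was not taken as a library. Which moult or moults the chalimus pool held, the number of animals in a pool and the time on the host are unstated in these sources.

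Sea lice are copepod crustaceans that parasitise fish. Eggs hatch into free-swimming larvae, the copepodid is the infective larva that finds and holds on to a host, and the chalimus is the larva that follows, tethered to the fish by a frontal filament and feeding on its skin and mucus. Adults of both sexes move over the host surface. The chalimus therefore differs from its neighbours in the life cycle in being attached by a filament and in growing and moulting on the fish.

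No file pairs the contig identifiers with gene names or sequences, so contigs are reported by identifier and no function is given to any of them. Lists of named cuticle, moulting hormone, peptidase, muscle, yolk and host genes could not be applied for the same reason, and the stage labels could not be checked against marker genes. The chalimus file held 116318842 counts, and the others between 78380827 (copepodid) and 149426248 (adult female). A count of 0 allows up to 3 counts, which is 0.0383 CPM in copepodid, 0.0249 CPM in egg, 0.0230 CPM in adult male and 0.0201 CPM in adult female. Intervals and limits describe counting error alone, because reads without molecular identifiers are not independent molecules and each stage is 1 pool.

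The 291 contigs held 3366017 chalimus counts, 2.89% of that library (95% Wilson interval 2.89% to 2.90%). The same contigs held 0.103% of the copepodid counts, 0.0248% of the egg counts, 0.0155% of the adult male counts and 0.00264% of the adult female counts. Their median level was 15.6 CPM in chalimus, with a range of 0.430 to 3652 CPM. The medians in the other libraries were 0 CPM in copepodid, 0.0249 CPM in egg, 0.0384 CPM in adult male and 0.0134 CPM in adult female, each at or near the level that a count of 0 allows. As the choice of contigs requires, all 291 were at least 4-fold higher in chalimus than in each other library. The corresponding percentages were taken over all contigs with 50 or more counts in either library compared. They were 15.1% against egg, 29.1% against copepodid, 19.6% against adult female and 12% against adult male.

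**Figure D1:**
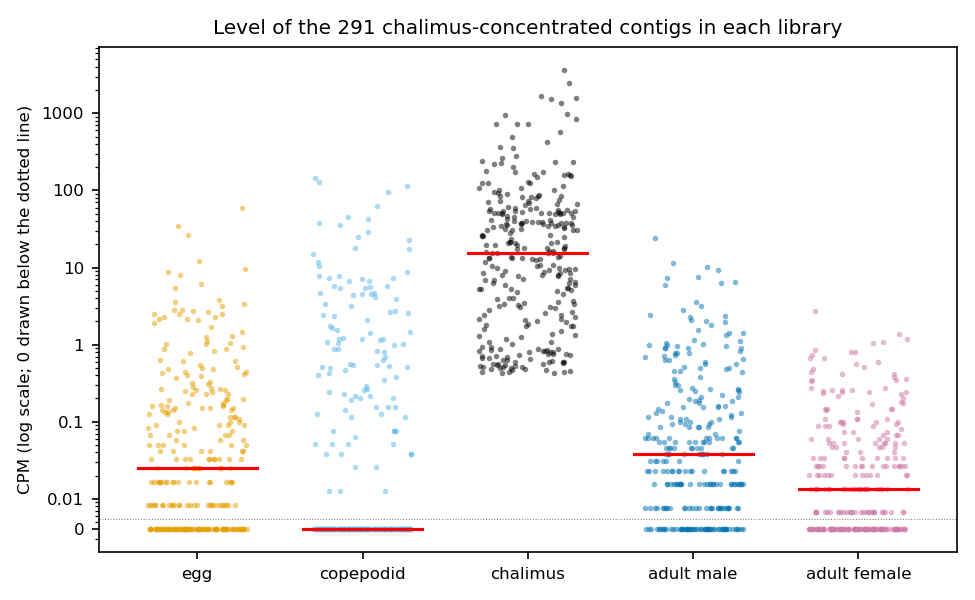
CPM (log scale) of each of the 291 contigs in the 5 libraries, 1 point per contig, with a red line at the median and contigs at 0 counts drawn below the dotted line. The chalimus points lie between 0.430 and 3652 CPM with a median of 15.6 CPM, and 178 contigs lie at 0 in copepodid.

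The share was above the threshold by differing margins. It lay between 90% and 95% for 100 contigs, between 95% and 99% for 97 and at 99% or more for 94, with a median of 97.2%. At the lower edge, GAZX01019769 (810 nt) and GAZX01020446 (1980 nt) were just inside at 90.001% and 90.014%, while GAZX01031610 (702 nt) and GAZX01038087 (1590 nt) were just outside at 89.993% and 89.896%. At the count floor, GAZX01027531 and GAZX01038493 entered with 50 chalimus counts, and GAZX01006100 and GAZX01006282 stayed outside with 48. When 3 counts were placed in every library where a contig was listed at 0, 235 of the 291 still reached a share of 90%. The other 56 had between 50 and 1541 chalimus counts, so their place in the set is within counting error. Counts above 0 were left unchanged, so the check does not place the 235 outside counting error.

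A few contigs held most of the counts. The 10 with the most chalimus counts held 54.3% of the chalimus counts of all 291, and the first 50 held 84.4%. The leading contig was GAZX01031613 (618 nt), with 424747 counts or 3652 CPM in chalimus, against 143 CPM in copepodid, 2.09 CPM in egg, 0.952 CPM in adult male and 0.134 CPM in adult female. It was 25.6-fold higher in chalimus than in copepodid, the next highest library (95% exact counting interval 25.1 to 26.0). By FPKM, which corrects for contig length, it stood at 5904 FPKM in chalimus and ranked 3 among all contigs of that library.

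The leading 5 by CPM were also the leading 5 by FPKM, in another order. GAZX01037543 (543 nt) had 2446 CPM in chalimus, against 128 CPM in copepodid, 1.48 CPM in egg, 3.14 CPM in adult male and 0.0736 CPM in adult female. GAZX01037545 (534 nt), close to it in number, had 1520 CPM in chalimus, against 114 CPM in copepodid, 2.49 CPM in egg, 2.29 CPM in adult male and 0.1004 CPM in adult female. Both had copepodid far above egg and the adults, as did GAZX01031613, but in GAZX01037543 adult male was above egg.

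GAZX01024370 (327 nt) was short and ranked second of the 291 by FPKM, at 5071 FPKM in chalimus. Its CPM was 1659 in chalimus, against 22.6 in copepodid, 0.423 in egg, 1.40 in adult male and 0.0268 in adult female. GAZX01030889 (896 nt) differed from these in its egg level, with 1567 CPM in chalimus, against 62.1 CPM in copepodid, 58.4 CPM in egg, 11.5 CPM in adult male and 2.75 CPM in adult female. With file totals its copepodid level was 1.06-fold that in egg (1.03 to 1.10 for counting error alone). The TMM factors of these totals were 0.665 for copepodid and 1.31 for egg, so this ratio depends on the scaling. GAZX01030889 was among the 3 contigs of the set with the most CPM in egg, in adult male and in adult female.

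The other 5 of the first 10 had between 723 and 1369 CPM in chalimus. GAZX01037547 (1306 nt) had 1369 CPM there, against 45.9 CPM in copepodid and 0.771 CPM in egg. GAZX01029905 (1075 nt) came closest to the 90% threshold among the 10, with a share of 90.9%, at 974 CPM in chalimus against 94.7 CPM in copepodid. GAZX01034299 (951 nt) resembled GAZX01030889, with 963 CPM in chalimus, against 38.1 CPM in copepodid and 26.4 CPM in egg. GAZX01018590 (883 nt) was the most concentrated of the 10, with a share of 98.97%, at 852 CPM in chalimus, against 7.31 CPM in copepodid and 0.497 CPM in egg. GAZX01036335 (806 nt) had 723 CPM in chalimus, against 36.03 CPM in copepodid, 0.0663 CPM in egg, 7.503 CPM in adult male and 0.0402 CPM in adult female. In all 10 contigs copepodid was the next highest library and adult female the lowest.

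**Figure D2:**
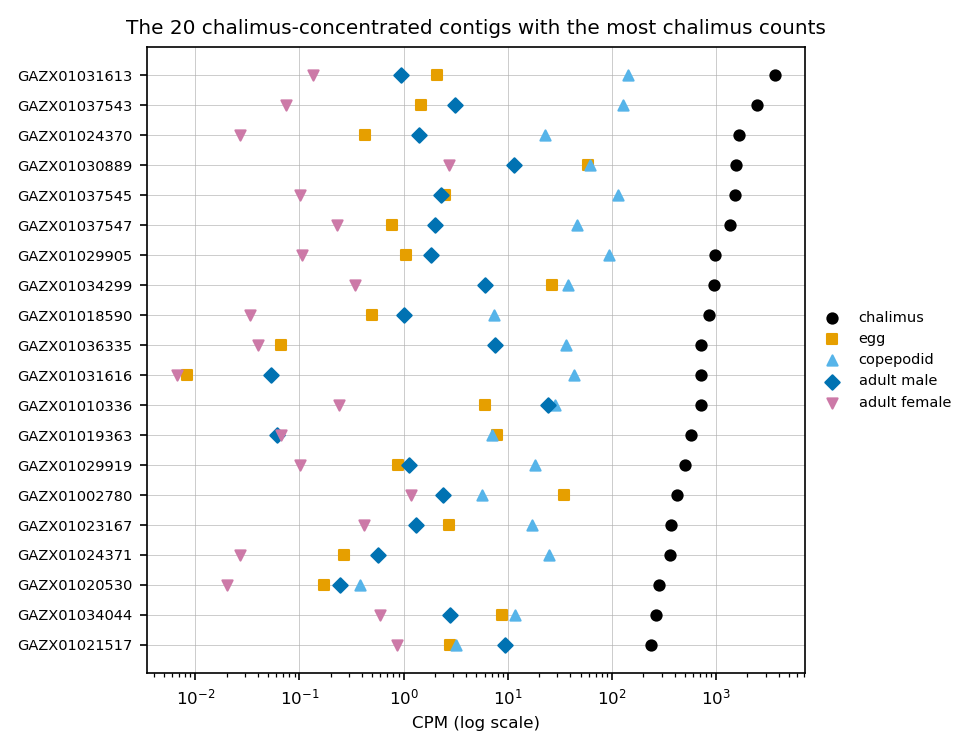
CPM (log scale) of the 20 contigs with the most chalimus counts in each library, 1 row per contig. Chalimus lies furthest to the right in every row, copepodid is mostly next, and GAZX01002780, with 34.9 CPM in egg and 5.60 CPM in copepodid, is an exception.

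Set out by the library that came next after chalimus, the contigs fell into unlike groups. Adult male came next for 94 contigs, copepodid for 82, egg for 55 and adult female for 32, while 28 had 0 counts in all 4 other libraries. The next library had 50 or more counts in 23 of the 94, 55 of the 82, 23 of the 55 and 6 of the 32. Many contigs were thus placed by few counts. The order of adult male and copepodid turned with the contigs kept, to 62 for adult male and 81 for copepodid among contigs with 200 or more chalimus counts. The copepodid group held 80.2% of the chalimus counts of the 291, with a median of 6754 chalimus counts per contig. The adult male group was more numerous but lower, with a median of 642 counts and 7.76% of the counts. The medians of the egg and adult female groups were 1490 and 1488 counts. In 74 of the 82 contigs of the copepodid group, that library held more CPM than egg and both adults together. The same held in the other groups, for 90 of 94 adult male, 48 of 55 egg and 31 of 32 adult female contigs.

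The next library followed the level in chalimus. Among the 47 contigs with 10000 or more chalimus counts, copepodid was next for 32, egg for 7, adult male for 7 and adult female for 1. Among the 64 contigs with 50 to fewer than 200 chalimus counts, adult male was next for 32, egg for 11, adult female for 5 and copepodid for 1, and 15 had 0 counts elsewhere. Zeros in the copepodid table moved with this split. Of those 64 contigs 63 had 0 copepodid counts (98.4%), against 36.03% of the 4632 other contigs with as many chalimus counts. Among those with 10000 or more, 6 of 47 had 0 copepodid counts (12.8%), against 2.27% of the other contigs. The choice of contigs requires low copepodid levels, and copepodid was the shallowest library, so the part of the zeros in this split was not tested.

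**Figure D3:**
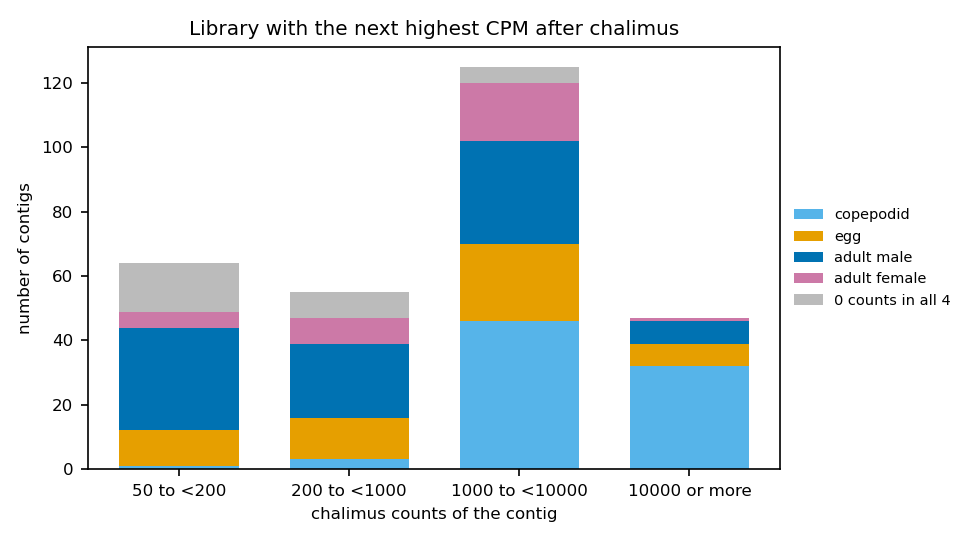
Number of contigs by chalimus counts (horizontal axis) and by the library with the next highest CPM (colour), with contigs at 0 counts in all 4 other libraries in grey. Copepodid accounts for 32 of the 47 contigs with 10000 or more chalimus counts and for 1 of the 64 with 50 to fewer than 200.

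Over the whole set, 178 contigs (61.2%) had 0 counts in copepodid, 97 (33.3%) in egg, 58 (19.9%) in adult male and 107 (36.8%) in adult female. Among the 20992 other contigs with 50 or more chalimus counts the percentages were 15.0% in copepodid, 1.09% in egg, 0.429% in adult male and 1.02% in adult female. The selection requires low levels in each of these libraries, which favours zeros, so nothing is read from the difference. The 113 contigs counted in copepodid held 90.6% of the chalimus counts of the set, with a median of 6335 counts, while the 178 at 0 had a median of 461. Of the total behind the copepodid FPKM, 1.08% was not in the table, so a count of 0 there means 0 in the table.

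The 28 contigs counted in chalimus alone among the 5 libraries were short and low, at a median of 364.5 nt and 165 chalimus counts. GAZX01028966 (345 nt) had the most, at 2524 counts or 21.7 CPM. It was at least 567-fold higher in chalimus than in copepodid, 873-fold than in egg, 942-fold than in adult male and 1081-fold than in adult female, with 3 counts set in each library at 0. GAZX01037022 (353 nt) followed with 2412 counts and GAZX01024983 (679 nt) with 1210. The joint count of both sexes listed 1 count each for GAZX01028966 and GAZX01024983 and 0 for GAZX01037022. These folds against copepodid hold only if no counts of the contig were left out of that table.

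Adult male and adult female can be compared within the set, since the selection limits the sum over the other libraries but not its division between the sexes. Summed over the 291 contigs, the level was 155 CPM in adult male and 26.4 CPM in adult female. Adult male was above adult female for 190 contigs (65.3%) and below it for 65 (22.3%), and the other 36 had 0 counts in both. Among the 20992 other contigs with 50 or more chalimus counts, adult male was above adult female for 48.8%. By a rule of size, at least 4-fold with 50 or more counts in the higher library, 44 of the 64 contigs that reached 50 counts were higher in adult male and 6 lower. Over all contigs that reached 50 counts in either sex, 15.4% were higher and 18.8% lower in adult male by that rule. With 10 or more counts in the higher library, 73 of 124 contigs were higher and 19 lower in adult male. Over all contigs that reached 10 counts, the percentages were 15.6% and 17.8%. A contig of this set reaches 50 counts mostly through the sex in which it is higher, so the 44 and the 6 are a description, and with 1 library per sex no test was possible.

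The highest adult male levels were in GAZX01010336, GAZX01030889 and GAZX01015422. GAZX01010336 (760 nt) had 3162 counts or 24.3 CPM in adult male, against 36 counts or 0.241 CPM in adult female, a 101-fold difference (95% counting interval 72.6 to 144). Its chalimus level was 719 CPM, and its copepodid level of 28.6 CPM was close to that in adult male. GAZX01015422 (870 nt) had 1320 counts or 10.1 CPM in adult male, against 5 counts or 0.0335 CPM in adult female, a 303-fold difference (129 to 935). In chalimus it stood at 166 CPM, and copepodid and egg were lower than adult male, at 0.408 and 0.870 CPM. Adult male was thus the next library after chalimus for GAZX01015422, whereas copepodid was for GAZX01010336.

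Of the 6 contigs lower in adult male, GAZX01020446 had the highest female level. It had 11 counts in adult male and 207 counts or 1.39 CPM in adult female, against 1541 counts or 13.2 CPM in chalimus, and was at 0 in copepodid and egg. Over all 291 contigs, the highest female level was the 2.75 CPM of GAZX01030889, and that of GAZX01020446 was second. The third was that of GAZX01002780 (868 nt), with 2.37 CPM in adult male and 1.19 CPM in adult female. Another of the 6, GAZX01037499, had 0 counts in adult male and 56 in adult female, but 38 in the joint count of both sexes, so its female count is uncertain. The joint count departed from the sum of both sexes for 114 of the 291 contigs (39.2%), by between -49 and 27 counts. Among contigs with 20 or more adult counts it departed for 39.6% of the set and for 56.6% of all contigs.

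Copepodid was set against egg in the same way, egg being the earlier stage among those sampled. Summed over the set, the level was 1025 CPM in copepodid and 248 CPM in egg. Copepodid was above egg for 89 contigs (30.6%) and below it for 119 (40.9%), and 83 had 0 counts in both. Of the 119, 95 had 0 counts in the copepodid table, and 28 of those 95 had 10 or more egg counts. Among the other contigs with 50 or more chalimus counts, copepodid was above egg for 20.5% and below it for 78.5%. Above and below were taken with file totals alone. Over all contigs with 50 or more counts in either library, the median log2 ratio was -0.69 with file totals and 0.28 with TMM factors. By the rule of size 44 of the 82 contigs that reached 50 counts were higher and 17 lower in copepodid. Over all contigs that reached 50 counts in either library, 29.4% were higher and 29.2% lower. The 8410 contigs behind the 29.4% include 6708 concentrated in copepodid by the same thresholds as the set. Those 6708 cannot be in the set, so the 29.4% is not a like background. With 10 or more counts in the higher library, 62 of 130 were higher and 38 lower in copepodid. Over all contigs that reached 10 counts, the percentages were 27.7% and 33.9%, the first again with those 6708 contigs included. The sum over the set was thus higher in copepodid, although more contigs had a higher level in egg, mostly with 0 counts in the copepodid table.

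The contig with the most CPM in egg after GAZX01030889 was GAZX01002780. It had 439 counts or 5.60 CPM in copepodid and 4214 counts or 34.9 CPM in egg, so copepodid stood at 0.160 of the egg level (0.145 to 0.177). Its chalimus level was 419 CPM, 12.0-fold above egg (11.6 to 12.4). At the other end GAZX01031613, the leading contig in copepodid as in chalimus, was 68.4-fold higher in copepodid than in egg (60.4 to 77.8). Of the 44 contigs higher in copepodid, 24 were under 50 counts in both sexes, and of the other 20, 17 were higher in adult male, 1 lower and 2 neither. Over all contigs higher in copepodid with 50 or more counts in either sex, 43.7% were higher in adult male and 9.80% lower. Of the 17 contigs lower in copepodid, 9 were under 50 counts in both sexes, 2 were higher in adult male, 1 lower and 5 neither. Over all contigs lower in copepodid with 50 or more counts in either sex, 8.53% were higher and 26.3% lower in adult male. These counts of few contigs are a description.

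**Figure D4:**
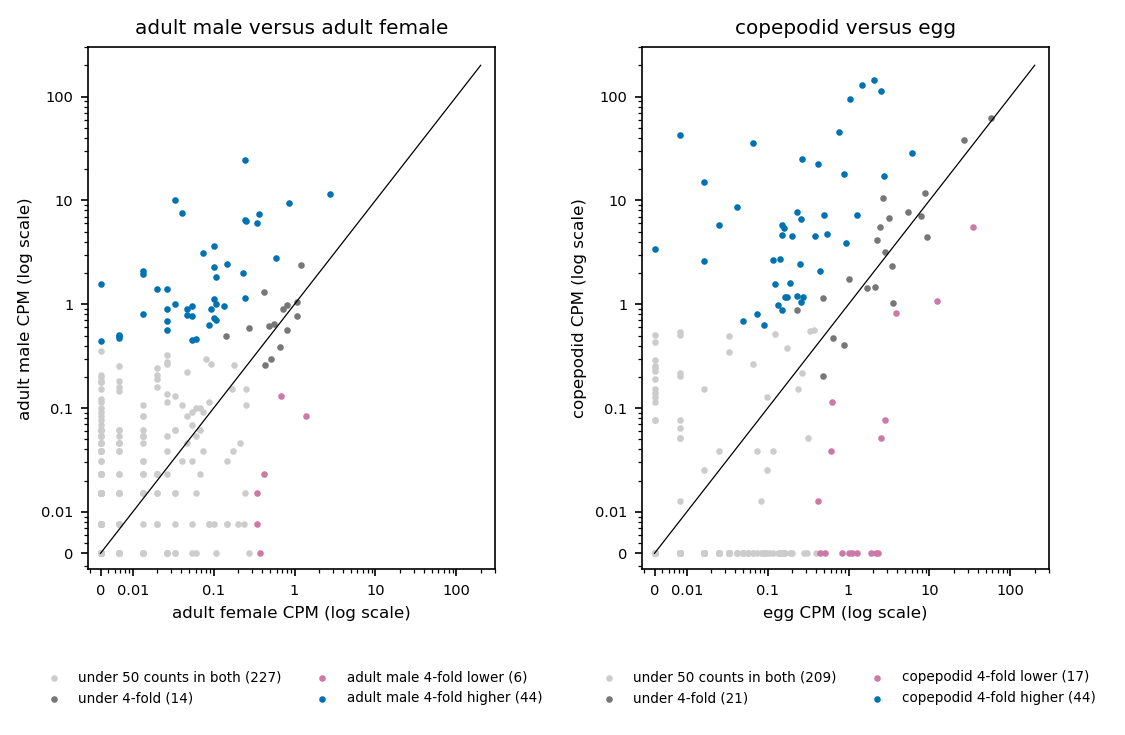
CPM (log scale, 0 drawn at the axis origin) of the 291 contigs in adult male against adult female, left, and in copepodid against egg, right, with a line of equal levels and colours for the 4-fold rule. In the left panel 44 contigs are at least 4-fold higher in adult male and 6 lower, and in the right panel 44 are higher in copepodid and 17 lower.

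The contigs were shorter than others of the chalimus library. Their median length was 655 nt (5th to 95th percentile 339 to 1751 nt), against 1534 nt (507 to 4485 nt) for the 20992 other contigs with 50 or more chalimus counts. They were not lower in level, since their median was 22.5 FPKM in chalimus, against 4.97 FPKM for the others. The shorter length held at every level, with 622.5 nt against 1112 nt among contigs with 50 to fewer than 200 chalimus counts and 806 nt against 1570 nt among those with 10000 or more. Contigs concentrated in the other libraries by the same threshold had a median length of 311 nt in copepodid (6708 contigs), 783 nt in egg (153), 658 nt in adult male (45) and 1426 nt in adult female (120). The chalimus set was thus close in length to the male set. The chalimus set held 2.89% of the counts of its library. The egg set held 2.43%, the copepodid set 5.23%, the male set 0.976% and the female set 12.9% of theirs.

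Many of the contigs had consecutive identifiers. Of the 291, 124 (42.6%) had another contig of the set at the next or previous number, in 44 runs, although the set was 0.660% of all contigs. The corresponding percentages were 68.8% for the copepodid set, 9.15% for the egg set, 26.7% for the male set and 25.8% for the female set. The files do not show whether contigs of consecutive number share sequence, so they are not counted as separate genes. With 1 contig kept per run, adult male was next for 74 contigs, copepodid for 58, egg for 40 and adult female for 23. One pair, chosen after its values were seen, was nearly alike in count. GAZX01027698 (1073 nt) and GAZX01027699 (524 nt) had 14490 and 14478 counts in chalimus, 835 and 821 in adult male, and 0 each in copepodid.

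The longest run was of 9 contigs, from GAZX01023689 to GAZX01023697, with 310 to 4040 chalimus counts and shares of 96.5% to 99.6%. Its first 6 contigs show the pattern. GAZX01023689, GAZX01023690, GAZX01023691, GAZX01023693 and GAZX01023694 had 2291, 2082, 2294, 3023 and 3937 counts in chalimus, and GAZX01023692 had 384. Over the run the summed counts were 20455 in chalimus, 202 in copepodid, 2 in egg, 8 in adult male and 255 in adult female. Unlike most of the set, the run had more counts in adult female than in adult male. The joint count of both sexes gave 263 for the same contigs, and 2 of the 9 were among the 6 contigs lower in adult male.

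Joining contigs of the set at most 5 numbers apart, a distance chosen after the data were seen, gave 6 blocks of 5 or more. They held 61 of the 291 contigs (21.0%) and 22.5% of the chalimus counts of the set. Joined in the same way, such blocks held 72.2% of the copepodid set, 11.1% of the male set, 4.17% of the female set and 0% of the egg set. The largest chalimus block ran from GAZX01028936 to GAZX01028973 and held 26 contigs of 345 to 985 nt among 38 numbers. Their shares were 95.6% to 100%, with a median of 99.6%, and their summed counts were 87701 in chalimus, 345 in copepodid, 95 in egg, 158 in adult male and 41 in adult female. The 10 other contigs of the block with 50 or more chalimus counts had shares of 36.3% to 86.8%, and their remainder lay mainly in copepodid and then egg. GAZX01028961 (413 nt), for example, had 23459 counts in chalimus, against 13426 in copepodid, 2353 in egg, 52 in adult male and 14 in adult female. The block therefore mixed contigs found almost only in chalimus with neighbours shared with the copepodid.

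A block of 9 numbers from GAZX01031608 to GAZX01031616 held GAZX01031613 and 16.1% of the chalimus counts of the set. Its 5 contigs in the set had summed counts of 540774 in chalimus, 16418 in copepodid, 260 in egg, 208 in adult male and 33 in adult female. Copepodid was the next library for all 5. GAZX01031616 (705 nt), with 722 CPM in chalimus, against 43.1 CPM in copepodid, had 1 count in egg, 7 in adult male and 1 in adult female. The 4 contigs between them that fell outside the set had shares of 35.4% to 89.99%. Copepodid came next after chalimus in 3 of them. In GAZX01031615 (634 nt), with 404 counts in chalimus and 494 in copepodid, copepodid was the highest library.

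**Figure D5:**
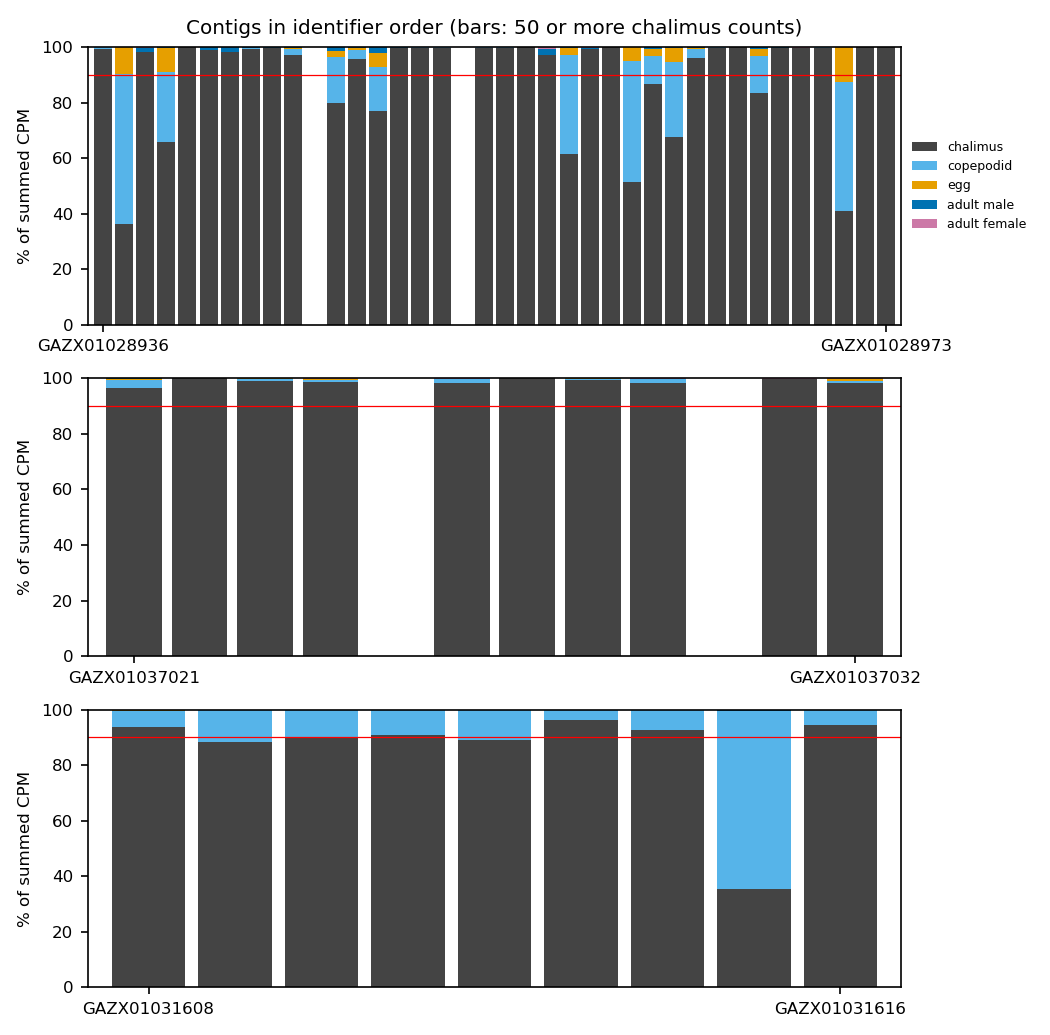
Percentage of the summed CPM of 5 libraries held by each library, 1 bar per contig in identifier order, for the blocks starting at GAZX01028936, GAZX01037021 and GAZX01031608, with a red line at 90% and a gap where a contig has under 50 chalimus counts. Bars below the line have their remainder mainly in copepodid, as in GAZX01028961 with 13426 copepodid and 23459 chalimus counts.

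The block from GAZX01037021 to GAZX01037032 held 10 contigs, with 33379 chalimus counts, 177 in copepodid, 76 in egg, 12 in adult male and 22 in adult female. Copepodid was next for 7 of its contigs and adult female for 2. A run of 4 contigs from GAZX01019361 to GAZX01019364 was unlike these in having egg next for 3, with 125050 counts in chalimus, 1194 in copepodid, 1803 in egg, 19 in adult male and 20 in adult female. Another run of 4, from GAZX01024982 to GAZX01024985, had 25696 counts in chalimus, 0 in copepodid, 6 in egg, 0 in adult male and 10 in adult female. In 16 of the 44 runs all contigs had the same next library, and in the others they differed.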

How the data were processed

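Each of 6 deposited files gives a count and an FPKM for 44089 contigs. The deposited counts are whole numbers with differing totals and were used as raw counts, as the authors' column header gives no normalisation. The FPKM values were computed by the authors per contig length and library total, and rounded to 3 decimals. The aligner, counting tool, assembly method and treatment of reads that match several contigs are unstated in these sources. Libraries were prepared by Illumina procedures from Trizol and RNeasy extracts, per the labels' protocols.

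CPM, shares and folds used file totals, ranging from 78380827 to 149426248 counts. Contig lengths were recovered from count and FPKM, and were whole within 0.05 nt for 100% of contigs above 300 FPKM. For log2 ratios 0.5 counts were added to each library in proportion to its total. No test was possible with 1 library per group. Ratios carry exact Clopper-Pearson intervals at 95%, for counting error only. The computation was tested on simulated data. Alternatives used TMM factors (edgeR 4.0.16), DESeq2 1.42.0 size factors (R 4.3.3), other thresholds and other libraries. Python 3.11.15, pandas 2.3.3 and scipy 1.17.1 were used.

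The set, the comparisons and the lists were chosen with earlier results of these data known. Named contigs were the 10 with the most chalimus CPM, the 5 with the most FPKM, the 3 with the most CPM in each other library, the 3 with the most counts among those at 0 elsewhere, up to 6 of the longest run of identifiers and those at the edges of the thresholds. Contigs of blocks and pairs, and examples from them, were chosen after their values were seen.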

Additional observations from a re-analysis of the deposited data

How the results depend on the processing

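No paired analysis was possible because each group has 1 library. Of the 291 contigs, 262 were also found with TMM factors (264 contigs in all) and 252 with DESeq2 size factors (254). The set held 481 contigs at a share of 80%, 191 at 95%, 1781 with 1 or more chalimus counts, 461 with copepodid left out of the share, 179 with only contigs whose adult recount was within 1% of the sum of both sexes, and 113 with only contigs counted in copepodid. Contigs at 0 elsewhere numbered 1400 with 1 or more and 13 with 200 or more chalimus counts. The next library was egg for 85 contigs at a share of 80%, 31 at 95%, 100 with 1 or more counts, 36 with recount within 1% and 17 counted in copepodid. It was copepodid for 139 at 80%, 48 at 95% and 34 with recount within 1%. It was adult female for 50 at 80%, 19 with recount within 1% and 4 counted in copepodid. It was adult male for 179 at 80%, 58 at 95%, 154 with 1 or more counts, 62 with 200 or more and 10 counted in copepodid. Copepodid came next more often than adult male in the last 2 of these settings, with 81 and 82 contigs, and less often in the other alternatives run. With 10 or more counts in the higher library, 73 contigs were higher and 19 lower in adult male than in adult female, and 38 were lower in copepodid than in egg. With 1 contig per run of identifiers, 3 were lower in adult male and 10 lower in copepodid. Median length lay between 614 and 682 nt over the alternatives run. The 4-fold counts for chalimus were 291 throughout, which the 90% threshold fixes in advance. File totals, TMM and DESeq2 gave median log2 ratios over all contigs with 50 or more counts in either library. These were -0.69, 0.28 and 0.42 for copepodid against egg and -0.16, -0.02 and 0.15 for adult male against adult female. Of the contigs differing 4-fold, 50.1%, 62.9% and 64.5% of all contigs and 72.1%, 77.8% and 77.8% of the set were higher in copepodid. In adult male they were 45.0%, 50.1% and 55.6% of all contigs and 88%, 88% and 88.2% of the set. The leave-out of contigs not counted in copepodid, the limits for zeros and the choice of 1 contig per run were added after seeing the data.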
